A study of Danio rerio with 2 samples.

Results

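The codons described here end in G and are read by a tRNA with C at position 34, the first anticodon base (C34). They were taken from a deposited codon table as the codons that had a dwell time at both stages and an anticodon starting with C. The rule gave 15 of the 61 sense codons, each with an anticodon of its own. The other 46 codons fall into 14 A-ending codons read by U34, 16 codons read by G34 and 16 read by A34, the position that is modified to inosine in eukaryotes. All 15 members ended in G, no other codon of the table did, and in 15 of 15 the anticodon was the exact complement of the codon.

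Ribosome footprints were sequenced from TLAB strain zebrafish embryos at bud, 10 hours post fertilisation (hpf), and at sphere, 4 hpf. Embryos of both stages were wild type and unperturbed. They were frozen and then lysed with 100 µg/ml cycloheximide (CHX) and 100 µg/ml tigecycline (TIG), inhibitors of translation elongation. Each stage had 1 library from 200 pooled whole embryos, so a value averages over all cells of the embryo and the difference between bud and sphere could not be compared with a spread between replicates. No p-value is given, since codons of 1 library are not replicates, and the codon table carries neither errors nor the number of footprints behind a value.

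Base 34 of a tRNA pairs with the third base of the codon. A C at this position pairs with G alone, whereas an unmodified or suitably modified U34 can read A and, by wobble, G as well. Most G-ending codons can therefore be served by their own C34 tRNA and by the U34 tRNA of the synonymous A-ending codon. Met and Trp are exceptions with a single codon each. The CG dinucleotide is scarce in vertebrate genomes, where its cytosine is often methylated, and codons that hold it are used rarely in vertebrate genes.

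The members are listed with the codon first and its anticodon after it, both 5′ to 3′, because the third codon base and base 34 of the anticodon, in capitals, define the group.
Ala: codon gcG, anticodon Cgc
Arg: codon agG, anticodon Ccu
Arg: codon cgG, anticodon Ccg
Gln: codon caG, anticodon Cug
Glu: codon gaG, anticodon Cuc
Gly: codon ggG, anticodon Ccc
Leu: codon cuG, anticodon Cag
Leu: codon uuG, anticodon Caa
Lys: codon aaG, anticodon Cuu
Met: codon auG, anticodon Cau
Pro: codon ccG, anticodon Cgg
Ser: codon ucG, anticodon Cga
Thr: codon acG, anticodon Cgu
Trp: codon ugG, anticodon Cca
Val: codon guG, anticodon Cac

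The codons that hold CG come from 5 amino acids and were the slowest members at bud. The dwell time used here is the relative time a ribosome spends with a codon in its A site, where the tRNA is selected, on a linear scale with values around 1. Ser-UCG had a dwell time of 1.33 in bud and 1.35 in sphere. Pro-CCG had 1.30 in bud and 1.26 in sphere, and Arg-CGG had 1.24 in bud and 1.36 in sphere. Ranked from the slowest of all 61 codons, these codons were at places 2, 3 and 4 in bud and at places 2, 6 and 1 in sphere. Ala-GCG had a dwell time of 1.24 in bud and 1.16 in sphere, and Thr-ACG had 1.23 in bud and 1.28 in sphere. Their places were 5 and 6 in bud, so that the CG codons filled places 2 to 6, behind Leu-CUA, a codon of the U34 class. In sphere Thr-ACG was at place 5 and Ala-GCG at place 11.

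The 10 members without CG ran from slow to fast. Leu-UUG was the slowest of them, with a dwell time of 1.23 in bud and 1.16 in sphere. Trp-UGG, the only tryptophan codon, followed with 1.14 in bud and 1.15 in sphere. These are the members without CG that ranked among the 15 slowest of all codons, at places 7 and 13 in bud and at places 10 and 12 in sphere. Leu-CUG (1.07 in bud and 1.02 in sphere), Arg-AGG (1.05 and 1.04) and Gly-GGG (1.04 and 1.08) lay in the middle of the range. Lys-AAG was below 1 at both stages, with 0.938 in bud and 0.996 in sphere. The fastest members were Val-GUG (0.923 in bud and 0.939 in sphere), Gln-CAG (0.905 and 0.926), Met-AUG (0.899 and 0.942) and Glu-GAG (0.892 and 0.949). Met-AUG here is the codon inside coding sequences, since the initiator has no dwell time in the table.

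The class was therefore not uniformly slow. The slowest member was 1.49-fold above the fastest in bud and 1.47-fold in sphere, and the standard deviation (SD) of log2 dwell time over the 15 codons was 0.21 in bud and 0.19 in sphere. The SD of the 46 other codons was 0.15 in bud and 0.14 in sphere, but their slowest-over-fastest ratio was wider, 1.63 and 1.56. The U34 codons came near the members, with a ratio of 1.46 in bud and 1.43 in sphere and SDs of 0.17 and 0.18. The SDs were 0.17 in bud and 0.14 in sphere for A34 codons and 0.074 and 0.049 for G34 codons. A wide spread was thus not particular to the members. The median dwell time of the members was 1.07 in bud and 1.08 in sphere, against 0.988 in bud and 0.988 in sphere for the other codons. The class medians in bud were 1.02 for U34, 0.961 for G34 and 0.989 for A34 codons, and those in sphere were 1.01, 0.971 and 0.983. Of the 15 members, 10 lay above the median of all codons at each stage, as did 20 of the 46 other codons. Among the 10 slowest of all codons, 6 were members in bud and 5 in sphere, and the rest belonged to the U34 class. No codon of the G34 or A34 class was among them.

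The codons holding CG carried the higher median of the class. Their median dwell time was 1.24 in bud and 1.28 in sphere, against 0.988 in bud and 1.01 in sphere for the 10 members without CG. The difference of median log2 dwell times (CG minus the other members) was 0.34 in bud and 0.35 in sphere, a factor of 1.26 and 1.27. In bud the CG codons spanned 1.23 to 1.33 and lay just clear of Leu-UUG, which also rounds to 1.23. In sphere they spanned 1.16 to 1.36, and Ala-GCG was marginally below Leu-UUG. The same dinucleotide occurs in 3 codons of other classes, all for arginine. Arg-CGA, read by U34, had a dwell time of 1.21 in bud and 1.31 in sphere. Arg-CGC and Arg-CGU share 1 A34 anticodon and had dwell times of 1.13 and 1.00 in bud and of 1.09 and 1.02 in sphere. CG codons of the other classes thus ranged down to the level of a typical codon, but they come from a single amino acid.

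Every member with C as the second base holds CG, so the 2 features cannot be told apart among these members. These 4 codons (Ala-GCG, Pro-CCG, Ser-UCG and Thr-ACG) had a median dwell time of 1.27 in bud and 1.27 in sphere. Their A-ending partners have C as the second base without CG, and each was faster than the member at both stages. Arg-CGG holds CG with G as the second base and had a dwell time of 1.24 in bud and 1.36 in sphere. The 3 members with A as the second base, Gln-CAG, Glu-GAG and Lys-AAG, had the lowest median, 0.905 in bud and 0.949 in sphere. Members with G as the second base had medians of 1.10 in bud and 1.11 in sphere, and those with U had 0.996 in bud and 0.981 in sphere. The median also differed with the number of G and C bases. It was 1.24 in bud and 1.21 in sphere for the 4 members made of G and C alone, 1.06 and 1.03 for the 8 with 2 such bases, and 0.938 and 0.996 for the 3 with 1. CG codons are unevenly spread over these sets, and single codons departed from the order. Gly-GGG consists of G alone and had a dwell time of 1.04 in bud and 1.08 in sphere, whereas Leu-UUG, with G as its only such base, had 1.23 in bud and 1.16 in sphere.

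Amino acid identity was held fixed by comparing each member with its synonymous codons. Of the 13 members that have any, 7 were the slowest codon of their amino acid in bud and 7 in sphere, among them all 5 CG codons at both stages. Of the 46 other codons, 11 were the slowest of their amino acid at each stage, 5 of 14 in the U34 class, 6 of 16 in the G34 class and 0 of 16 in the A34 class. Without CG, 2 of 8 members were. The 6 of the G34 class were fixed beforehand, since Asn, Asp, Cys, His, Phe and Tyr have G34 codons alone. Each of these amino acids gives a slowest codon of that class whatever the values. This part of the 11 is therefore no measured background for the members. Gln, Glu and Lys have only a C34 and a U34 codon, so either the member or the U34 codon had to be slowest. The U34 count, which includes Gln-CAA and Glu-GAA, is thus not independent of that of the members. Lys-AAG was the slowest by only 1.005-fold in bud and 1.007-fold in sphere. Relative to the mean log2 dwell time of the amino acid, Ser-UCG lay highest, 0.40 above in bud and 0.41 above in sphere. Thr-ACG followed with 0.31 in bud and 0.36 in sphere. Leu-CUG was farthest below its amino acid mean, with -0.15 in bud and -0.16 in sphere, although its dwell time exceeded 1. Each of the 6 leucine codons had a dwell time above 1 at both stages.

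A narrower comparison sets each G-ending codon against the A-ending codon with the same first 2 bases, which was possible for 13 pairs. The median log2 ratio of G-ending over A-ending dwell time was 0.065 in bud and 0.052 in sphere. The G-ending codon was the slower one in 9 pairs in bud and in 8 pairs in sphere. All 5 pairs with CG in the G-ending codon ran this way at both stages, with a median of 0.25 in bud and 0.30 in sphere. Ser-UCG over Ser-UCA gave the widest ratio, 0.44 in bud and 0.47 in sphere, and Arg-CGG over Arg-CGA, in which both codons hold CG, the narrowest of the 5, 0.038 in bud and 0.052 in sphere. In the 8 pairs without CG in the G-ending codon the median was -0.069 in bud and -0.033 in sphere. The direction of the pair median thus rested on the CG codons.

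Among the pairs without CG, Leu-CUG stood lowest against its partner. Leu-CUG had a dwell time of 1.07 in bud and 1.02 in sphere, against 1.35 in bud and 1.33 in sphere for Leu-CUA, a log2 ratio of -0.34 in bud and -0.38 in sphere. Gln-CAG, Glu-GAG and Val-GUG were also faster than their A-ending partners at both stages, with log2 ratios between -0.16 and -0.14 in bud and between -0.12 and -0.057 in sphere. Gly-GGG was slower than Gly-GGA by 0.17 in bud and 0.22 in sphere, and Arg-AGG was slower than Arg-AGA by 0.14 in bud and 0.090 in sphere. The lysine codons hardly differed, with 0.938 for Lys-AAG and 0.933 for Lys-AAA in bud and 0.996 and 0.989 in sphere. Only the Leu-UUG pair changed direction between the stages, with 0.065 in bud and -0.0088 in sphere.

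The supply of the decoding tRNAs was taken from the same table, as the authors' single value per anticodon and stage. The 15 C34 tRNAs together held 27.0% of tRNA reads in bud and 26.9% in sphere. The 14 U34 tRNAs held 22.8% in bud and 23.0% in sphere, the 8 G34 tRNAs 25.02% and 23.86%, and the 8 A34 tRNAs 22.5% and 22.9%. The C34 total was thus nearly the same at both stages. It was spread unevenly, since the most abundant C34 tRNA exceeded the scarcest 27.6-fold in bud and 34.8-fold in sphere, against 24.1-fold in bud and 18.4-fold in sphere among the U34 tRNAs. The span was 4.15-fold and 3.58-fold among the G34 tRNAs and 3.48-fold and 2.37-fold among the A34 tRNAs.

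The scarcest tRNAs of the table were C34 tRNAs. The tRNA for Leu-UUG held 0.212% of tRNA reads in bud and 0.333% in sphere, and the tRNA for Ser-UCG held 0.262% in bud and 0.139% in sphere. These were the scarcest and second scarcest of all 45 elongator anticodons in bud, with the order exchanged in sphere. Low values were also given for the tRNAs of Arg-CGG (0.361% in bud and 0.581% in sphere), Pro-CCG (0.383% and 0.514%) and Gly-GGG (0.587% and 0.458%). At the other end, the tRNA for Glu-GAG held 5.85% in bud and 4.86% in sphere, behind a single anticodon in bud and 2 anticodons in sphere. In bud the tRNAs for Gln-CAG, Ala-GCG, Trp-UGG and Lys-AAG were abundant as well, with 3.42%, 3.09%, 2.84% and 2.74%. In sphere they held 3.40%, 3.42%, 2.32% and 1.85%. There the tRNA for Lys-AAG lay below the median of all 45 elongator anticodons, 2.06%, and below the tRNA for Thr-ACG. The remaining 5 C34 tRNAs, those of Met-AUG, Leu-CUG, Val-GUG, Thr-ACG and Arg-AGG, lay between 1.29% and 1.86% in bud and between 1.28% and 2.41% in sphere.

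To relate supply to decoding, dwell times were set against the inverse of the tRNA proportion, the scale the study uses. Over the 15 members, Pearson's r was 0.656 in bud (Spearman's rho = 0.629) and 0.582 in sphere (rho = 0.443). These correlations run across codons of the same libraries and describe them. Over the 46 other codons r was 0.574 in bud (rho = 0.270) and 0.456 in sphere (rho = 0.167). Over the 14 U34 codons r was 0.689 in bud and 0.388 in sphere. The 16 G34 codons gave -0.376 in bud and -0.233 in sphere and the 16 A34 codons 0.164 and -0.0855, but these classes hold 2 codons per anticodon and span a narrow range of tRNA proportions. Whether r differs between the classes was not tested. Over the 10 members without CG r was 0.711 in bud (rho = 0.576) and 0.660 in sphere (rho = 0.479). Leu-UUG stood far out there, with an inverse proportion of 472 in bud and 301 in sphere. The next, Gly-GGG, had 170 and 218. How far r over these 10 rests on Leu-UUG was not tested. Over the 15 members without the codons of the most extreme inverse proportion r was 0.584 in bud and 0.487 in sphere.

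Supply and dwell time parted in some members. A straight line was fitted to dwell time and inverse tRNA proportion over the 46 other codons, and each member was set against it. Of the 15 members, 7 lay above the line in bud and 7 in sphere, against 20 and 22 of the 46 codons used for the fit. Of the 5 CG codons, 4 lay above it at each stage, and of the 10 without CG, 3 did. The 3 CG codons of the other classes, which took part in the fit, also lay above it at both stages, Arg-CGA by 0.20 in bud and 0.27 in sphere, Arg-CGC by 0.17 and 0.12, and Arg-CGU by 0.037 and 0.041. Ala-GCG had an abundant tRNA and yet a dwell time 0.27 above the line in bud and 0.18 in sphere. Thr-ACG was 0.21 above in bud and 0.29 in sphere, and Trp-UGG 0.16 and 0.15. On the other side, Leu-UUG lay 0.21 below the line in bud and 0.044 below in sphere, and Ser-UCG, the CG codon that did not exceed the line, was 0.010 below in bud and 0.19 below in sphere. The tRNAs of Leu-UUG and Ser-UCG are scarcer than any of the other codons, so the line is extrapolated there.

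Within boxes, the dwell time ratio of G-ending over A-ending codons was compared with the ratio of the C34 over the U34 tRNA. Glu-GAG had the tRNA most in excess of its U34 partner, 9.50-fold in bud and 6.62-fold in sphere, and was the faster codon of its pair. For Gly-GGG the C34 tRNA held 0.170 of the proportion of the U34 tRNA in bud and 0.131 in sphere, and Gly-GGG was the slower codon. In the 8 pairs without CG in the G-ending codon, the codon with the scarcer tRNA was the slower one in 8 of 8 pairs in bud and in 7 of 8 in sphere, with r = -0.797 in bud and -0.797 in sphere between the log2 ratios. Some of these pairs were near ties. The Val tRNAs differed 1.04-fold in bud and 1.02-fold in sphere, and the Lys dwell times 1.005-fold and 1.007-fold. Over all 13 pairs the codon with the scarcer tRNA was the slower one in 11 in bud and 10 in sphere. There r was -0.462 in bud and -0.340 in sphere. Among the pairs with CG, Ala-GCG and Thr-ACG were slower than their A-ending partners although their C34 tRNAs were the more abundant ones. The excess was 3.87-fold in bud and 3.47-fold in sphere for Ala-GCG, and 1.18-fold in bud and 3.00-fold in sphere for Thr-ACG.

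Dwell times of the members correlated between bud and sphere, with r = 0.940 (rho = 0.921) over the 15 codons. Over the 46 other codons r was 0.950 (rho = 0.895). The order of the slow and fast codons was thus largely shared by both libraries, for members and other codons alike. Among the 5 CG codons alone r was 0.335 (rho = 0.3), against 0.951 (rho = 0.842) over the 10 members without CG. The 5 CG codons also had the narrower spread, with an SD of log2 dwell time of 0.049 in bud and 0.093 in sphere. The SD over the 10 members without CG was 0.16 in bud and 0.12 in sphere. So few codons in a narrow range leave r poorly determined, and whether it differs between the 2 sets was not tested. Of the 15 members, 10 had a lower dwell time in bud and 5 a higher one, against 25 and 21 of the 46 other codons. The median log2(bud/sphere) was -0.025 over the members and -0.0046 over the other codons. A dwell time at least 5% lower in bud was found for 3 members, Arg-CGG, Glu-GAG and Lys-AAG, while 9.84% of all 61 codons passed this limit. A dwell time at least 5% higher in bud was found for 2, Ala-GCG and Leu-UUG, while 6.56% of all codons did.

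The largest shift of a member was that of Arg-CGG, with 1.24 in bud and 1.36 in sphere, a difference of -8.43% in bud relative to sphere and the strongest lowering among all codons. Glu-GAG had a change of -6.02% and Lys-AAG one of -5.83%. In the opposite direction Ala-GCG changed by 7.38%, the second largest increase of the table after that of Ala-GCA, and Leu-UUG by 5.96%. The remaining 10 members changed by less than 5%, from -4.51% for Met-AUG to 4.70% for Leu-CUG. In 8 of the 13 pairs the G-ending and the A-ending codon differed between the stages in the same direction, and their log2 changes gave r = 0.729 (rho = 0.533). The alanine pair was higher in bud in both codons, with a log2 change of 0.10 for Ala-GCG and 0.15 for Ala-GCA, and the pair of Arg-CGG (-0.13) and Arg-CGA (-0.11) lower. Without replicates it is unknown whether these changes exceed the variation between libraries. The study's methods state more usable footprints for the bud than for the sphere library, and the part of this difference in the changes was not tested.

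The C34 tRNA proportions changed in both directions. A value at least 25% higher in bud was found for 3 of the 15 tRNAs, while 15.6% of the 45 anticodons passed this limit. A value at least 20% lower in bud, the same limit on the fold scale, was found for 5, and 15.6% of the anticodons passed that limit. The tRNA for Ser-UCG had the largest fold increase of the table, 1.88-fold. It rose from 0.139% in sphere, the lowest proportion of that stage, to 0.262% in bud. Within the class it was followed by the tRNAs for Lys-AAG (1.48-fold) and Gly-GGG (1.28-fold). The lower tRNAs were those of Thr-ACG, Arg-CGG, Leu-UUG, Leu-CUG and Pro-CCG, whose bud values were 0.557, 0.621, 0.637, 0.693 and 0.746 of their sphere values. Thr-ACG thereby had the largest decrease of the table. Summed over the 5 CG codons the tRNA share was 5.44% in bud and 7.06% in sphere, whereas the 10 other C34 tRNAs held 21.6% in bud and 19.8% in sphere.

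Changes in dwell time were then set against changes in tRNA proportion. In 11 of the 15 members the 2 quantities moved in opposite directions between the stages, as they did in 31 of the 46 other codons. The dwell time was lower and the tRNA proportion higher in 7 members, and the reverse held for 4. Leu-UUG had a higher dwell time and a lower tRNA share in bud, as had Leu-CUG, Pro-CCG and Ala-GCG. Over the 15 members bud minus sphere dwell times, on the linear scale, and the log2 change in tRNA proportion gave r = -0.197 (rho = -0.250).

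Over the 10 members without CG, r was -0.892 (rho = -0.830). It was -0.613 over 8 of them when Leu-UUG and Leu-CUG, the codons with the farthest tRNA changes, were left out, so much of its strength came from the leucine codons. Over the 5 CG codons the sign was the opposite, r = 0.273 (rho = 0.600), a value that so few codons leave poorly determined. In 3 of these codons dwell time and tRNA share moved in opposite directions and in 2 they did not. Arg-CGG and Thr-ACG had a lower dwell time in bud together with a lower tRNA share, and Ser-UCG had a dwell time of 1.33 in bud and 1.35 in sphere with a 1.88-fold higher tRNA share. All 46 other codons, CG codons included, gave r = -0.376. By class, r was -0.398 for U34, -0.363 for A34 and -0.266 for G34 codons, with 2 codons per anticodon in the A34 and G34 classes. Each dwell time comes from a single library. The study sequenced tRNA in replicate libraries, but the codon table gives a single proportion per stage with no spread, so no error could be attached to these changes here.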

How the data were processed

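The authors trimmed footprint reads with Cutadapt, discarded rRNA matches found by Bowtie, and mapped what was left with STAR to GRCz11, keeping unique alignments. They assigned A sites with Scikit-ribo, whose linear model uses matched RNA-seq. The deposited dwell times are ratios per codon on a linear scale, relative within a library, so a change common to all codons cannot be seen. The deposited tRNA proportions are fractions of tRNA reads per anticodon, which the authors obtained by mim-tRNAseq in libraries not analysed here, and are printed as percent. Whether reads of near-identical tRNAs affected them was not tested.

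Codons were translated with the standard code (Biopython 1.88), and codons and anticodons are written with U. Members, comparisons and alternatives were chosen with earlier results of these data known. All 15 members are named. Other codons are named when A-ending partners of a member or CG codons. Statements on single members and the base composition were written after their values were seen. Changes were described at 5% for dwell times and at 25% higher or 20% lower for tRNA proportions. Values were summarised by medians, log2 ratios, Pearson's r and Spearman's rho with numpy 2.4.6 and pandas 2.3.3, and functions were tested on simulated data. The footprint TPM table was not used. The codon table gives no depth per codon. Per the methods, the bud library had more usable footprints than the sphere library, so sphere dwell times may carry the larger counting error.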

Additional observations from a re-analysis of the deposited data

How the results depend on the processing

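Each of 14 results was recomputed under other settings, 51 in all. A value was counted as moved when it changed by more than 1.5-fold, since no replicate spread exists. By this limit 37 stayed, 8 moved and 6 changed sign. Some settings were fixed beforehand. Leaving out pairs with CG in either codon left the same 8 pairs as the G-ending rule, so those sign changes were counted again. The median of the 61 codons was 1 in bud, so dividing by it could not move a bud value. Leaving out Met and Trp together returned the same medians of dwell time, since Met-AUG lay below them and Trp-UGG above them. Without the CG codons, the median log2 dwell time of the members was -0.020 in bud and 0.012 in sphere (0.096 and 0.11 as reported), the median G over A ratio was -0.069 in bud and -0.033 in sphere (the same if pairs with CG in either codon were left out), the pair relation with tRNA was -0.797 in bud and -0.797 in sphere, the median log2 change in tRNA was 0.077 (0.0089 as reported) and r between the changes was -0.892 (-0.197 as reported). As deviations from the amino acid mean, the median log2 dwell times were 0.052 in bud and 0.039 in sphere. The mean log2 change in tRNA was -0.061. Without Ser-UCG and Thr-ACG r between the changes was -0.350. The causes were not tested, beyond the codons each setting leaves out. The excess of CG codons stayed between 0.23 and 0.34 in bud and between 0.28 and 0.35 in sphere. The relation of dwell time with inverse tRNA proportion stayed between 0.562 and 0.711 in bud and between 0.443 and 0.660 in sphere. The upper ends came from the members without CG, with Leu-UUG kept. The result without Leu-UUG and Leu-CUG was chosen after seeing the data. No paired analysis was possible because bud and sphere are represented by 1 library each, which also leaves none to omit.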

Other observations

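The initiator methionine tRNA carries the same C34 anticodon as the elongator, but its entry has no dwell time. It held 2.68% of tRNA reads in bud and 3.34% in sphere, against 1.86% in bud and 1.68% in sphere for the elongator of Met-AUG. The proportion was lower in bud for the initiator and higher for the elongator.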
